A study of Homo sapiens with 47 samples.

Results

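CD44 and 5 genes often linked to stem cell properties of breast cancer cells, PROCR, ALDH1A3, SOX9, KLF4 and MYC, were examined in single circulating tumor cells (CTCs) and in single cultured cells of the same line. These 6 genes were chosen by name from the 25739 genes of the expression table, and all 6 were present in it. The cells were MDA-MB-231-LM2 (LM2), an established human triple-negative breast cancer (TNBC) line selected for its spread to the lung, and carried a GFP tag. For the CTCs, LM2-GFP cells were implanted in the mammary fat pad of NSG mice aged 6 to 8 weeks and left to metastasize spontaneously. NSG mice lack most lymphocytes and natural killer cells, so the CTCs circulated in hosts without an adaptive immune system. Blood was taken at the end point, enriched for large cells and stained for CD45, and single GFP-positive cells were picked. The comparison group was 6 LM2 cells grown in tissue culture, and the labels name no drug and no gene edit for either group.

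Each picked cell gave 1 SMARTseq2 library, a full-length cDNA library without molecular identifiers. The 37 CTCs came from 5 mice, with 2 CTCs of mouse 5541, 4 of mouse 5542, 10 of mouse 5545, 17 of mouse 5546 and 4 of mouse 5549. Within mouse 5546, 9 library names contain a c and 8 an s (called c and s libraries below), a distinction that the sources used here do not explain. The mouse was taken as the replicate of the CTCs. The 6 cultured cells were taken as 1 sample without a replicate, because the labels name cells but no separate cultures, so that passage through a mouse, life in blood and enrichment of the cells cannot be told apart from any other property of the cultured cells.

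CD44 is a transmembrane receptor for the matrix glycan hyaluronan, and breast cancer cells with high CD44 and low CD24 on their surface have been studied as tumor-initiating cells. PROCR, the endothelial protein C receptor, marks stem-like cells in the mouse mammary gland, and ALDH1A3 oxidizes retinal to retinoic acid and accounts for much of the ALDEFLUOR activity used to sort breast cancer stem cells. SOX9, KLF4 and MYC are transcription factors, of which SOX9 acts in mammary progenitors, and KLF4 and MYC belong to the set of factors that reprograms somatic cells to pluripotency.

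Values below are normalized counts, that is, reads per gene after division by a size factor that scales cells to each other. Any value above 0 was taken as detection. Reads on genes ranged from 469614 to 2041333 per CTC and from 776949 to 1186197 per cultured cell. All 37 CTCs had reads of the 10 genes taken as markers of mesenchymal LM2 cells, with VIM at a mean of 8972 over the 5 mouse means and 5549 in culture. CTC 5545-6 stood apart with 2313 genes detected, the fewest of all cells. Reads of markers of blood cells occurred in many CTCs, with neutrophil markers in 30, monocyte and macrophage markers in 30, leukocyte markers in 24 and erythroid markers in 36 of the 37, and no marker that the table holds was at 0 in all CTCs. The medians of the leukocyte and monocyte sums did not set CTCs apart. The summed leukocyte markers had a median of 12.6 in CTCs and of 19.9 in cultured cells, and the monocyte and macrophage markers 6.59 and 7.55. The highest sums were larger in CTCs, with leukocyte sums of 0 to 653 in CTCs and of 0 to 41.8 in cultured cells. The monocyte and macrophage sums were 0 to 426 in CTCs and 0 to 15.5 in cultured cells. The neutrophil and erythroid sums were 0 in every cultured cell. The leukocyte and monocyte sums pool genes that differed. On reads summed per mouse (edgeR, below), the log2 fold change of CTCs over culture was 8.35 for PTPRC, 7.60 for CORO1A and 1.30 for LCP1. For CD14, LYZ, ITGAM, CSF1R and CD68 it was 3.76, 3.96, 5.19, 1.41 and -0.14. The test called 0 of them.

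CD44 was the member found in every cell. Its detection in 37 of 37 CTCs has an exact 95% binomial interval of 90.5% to 100%, and this and the following intervals cover counting error only. The transcription factors came next. KLF4 was detected in 31 of 37 CTCs (83.8%, interval 68.0% to 93.8%), and SOX9 in 30 (81.1%, 64.8% to 92.0%). MYC was detected in 28 (75.7%, 58.8% to 88.2%). PROCR was detected in 24 (64.9%, 47.5% to 79.8%), and ALDH1A3, the rarest, in 10 (27.0%, 13.8% to 44.1%). In culture CD44 and MYC were detected in 6 of 6 cells, KLF4 in 5, PROCR and SOX9 in 4 and ALDH1A3 in 3. After each cell was thinned to 469614 reads, the number of CTCs with a read was 37 for CD44, 29 for SOX9, 29 for KLF4, 28 for MYC, 23 for PROCR and 9 for ALDH1A3, so the order of detection was nearly the same at equal depth.

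**Figure D1:**
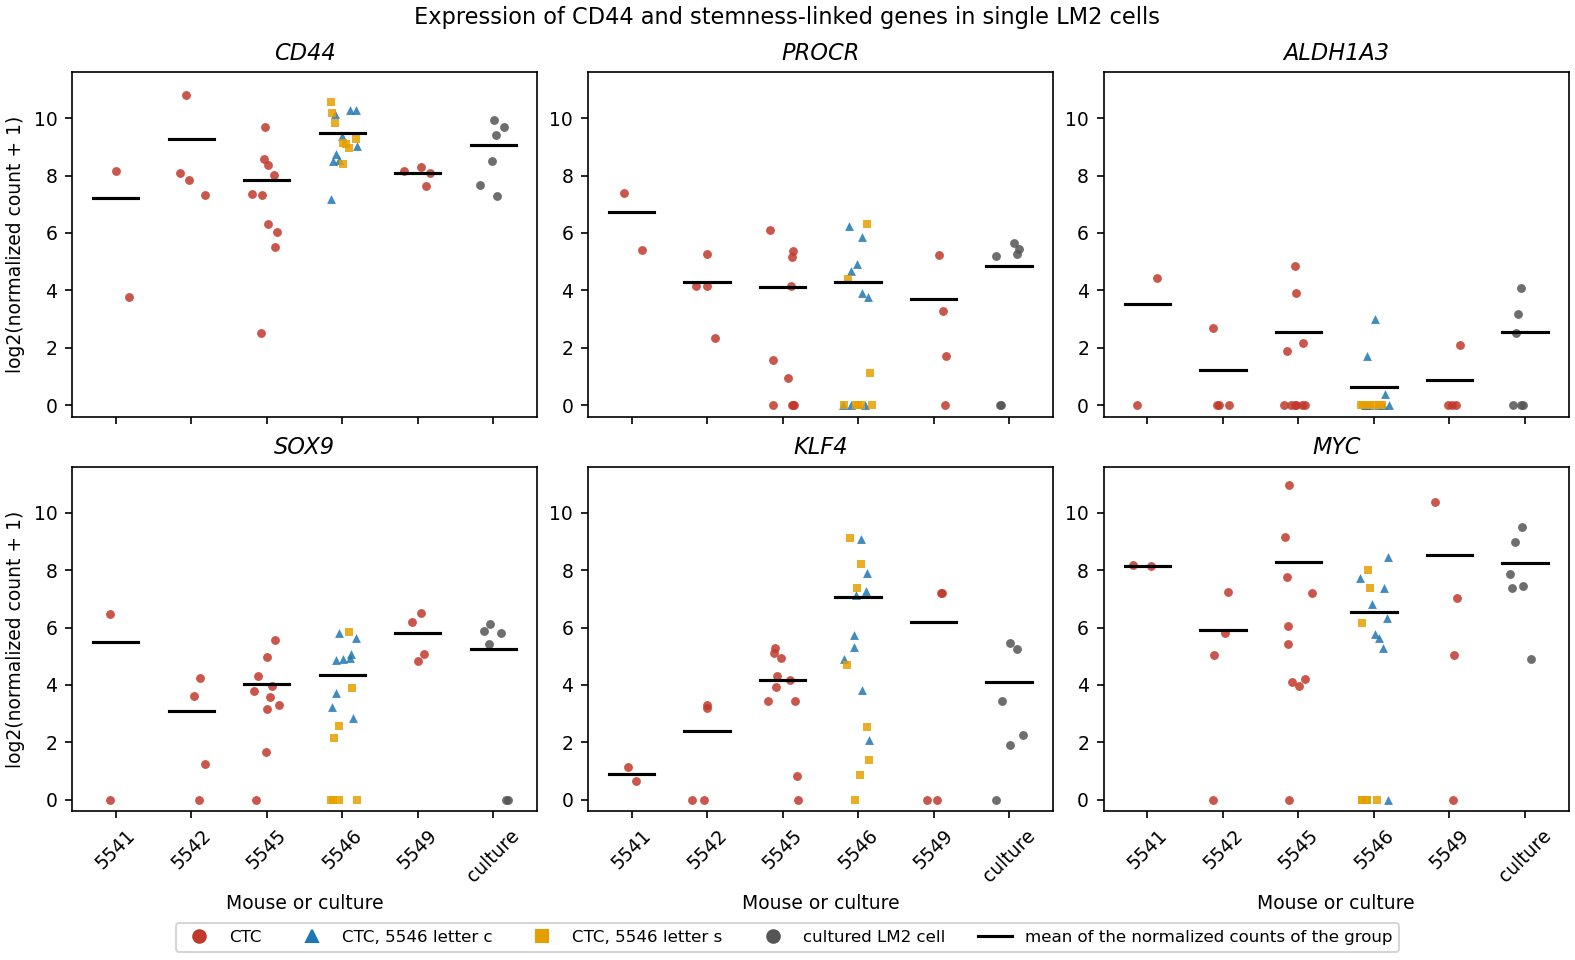
Expression of the 6 genes in single cells, as log2(normalized count + 1) on the vertical axis, by mouse and for the culture. Each point is 1 cell and each black line the mean of the normalized counts of the group, drawn on the same scale. CD44 was above 0 in all 43 cells, while the other genes had cells at 0, and KLF4 reached its highest values in mice 5546 and 5549.

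Most CTCs carried reads of several members at once. Of the 37 CTCs, 3 had reads of all 6 genes, 17 of 5, 8 of 4, 7 of 3 and 2 of only 2. The CTCs with all 6 were 5545-1, 5546-c1 and 5546-c9. The 2 CTCs with the fewest were 5545-6, in which only CD44 and ALDH1A3 had reads, and 5546-s9, in which only CD44 and KLF4 had reads. Within mouse 5546, 7 of the 9 c libraries but 0 of the 8 s libraries had reads of 5 or 6 members. Genes detected moved with the letter, with a median of 9670 in the c libraries and 6454 in the s libraries, and its part in the member counts was not tested. The 6 cultured cells had reads of 2 to 6 members with a median of 5.5.

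Levels per length of exon placed CD44 and MYC above the rest. Length was the union of the exons of all annotated transcripts of a gene, 9992 bases for CD44 and 6109 for MYC. Other lengths, on which the order may depend, were not tried. The mean over mouse means, as normalized counts per kilobase of exon, was 39.7 ± 25.4 (SD, n = 5 mice) for CD44 and 36.6 ± 22.8 for MYC. PROCR followed with 20.0 ± 23.2, KLF4 with 12.4 ± 15.5 and SOX9 with 7.23 ± 5.20. ALDH1A3 was lowest at 0.673 ± 0.783. Each neighboring pair from CD44 down to SOX9 differed by less than the larger of its SDs over mice, whereas the highest mouse mean of ALDH1A3, 1.95, lay just above the lowest of SOX9, 1.93. The values of PROCR and ALDH1A3 rested on CTC 5541-1, 1 of the 2 CTCs of mouse 5541. Without it, an alternative chosen after seeing the data, PROCR was at 12.6 ± 6.86, level with KLF4 at 12.5 ± 15.5 and apart from MYC, at 36.7 ± 22.8, by more than either SD. ALDH1A3 was then at 0.282 ± 0.358, and its highest mouse mean was 0.901. In culture the order by length was CD44 at 53.5, MYC at 49.9, PROCR at 16.3, SOX9 at 9.49, KLF4 at 4.41 and ALDH1A3 at 0.898, so that KLF4 and SOX9 changed places.

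The surface receptors come first. CD44 (ENSG00000026508) lies on the plus strand of chromosome 11 at chr11:35138882-35232402 (GRCh38, GENCODE release 44). In mouse 5541 its normalized count was 12.7 and 284 in the 2 CTCs, and in mouse 5549 it was 200.3, 273, 288 and 317. Mouse 5542 held the CTC with the highest value, with 159.6, 231, 275 and 1790.5. In mouse 5545 CD44 ranged from 4.69 to 827 with a median of 162, and in mouse 5546 from 145 to 1515 with a median of 565. The lowest value was that of CTC 5545-6. In cultured cells CD44 was 156, 204, 360.3, 675, 829.8 and 983, and 25 of the 37 CTCs fell within this range. Above it were 5 CTCs of mouse 5546 and 1 of mouse 5542, and below it were 4 CTCs of mouse 5545 and 1 each of mice 5541 and 5546.

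Over all CTCs, the values of CD44 differed by mouse more than those of the other members. The share of the variance of log2(normalized count + 1) over 37 CTCs that lay between mice was 40.4%, against a median of 12.1% over 6138 genes with a mean of at least 8 and reads in at least 50% of CTCs. Only 1.38% of these genes had a share as high. This rested on mouse 5546, since without its CTCs the share was 19.2% and 37.1% of genes were as high, and without its s libraries it was 33.4% and 13.05% of genes were as high. CD44 did not lead under these settings, since PROCR, at 28.4%, and SOX9, at 29.6%, had larger shares without mouse 5546, and KLF4, at 37.5%, without the s libraries. The median of CD44 was 517 in the c libraries and 589 in the s libraries. Markers of blood cells also differed by mouse. The summed level of the neutrophil markers, 5 of 8 of which were in the table, ranged from 14.0 to 368 in mouse 5546, from 0.561 to 574 in mouse 5549, from 0 to 93.7 in mouse 5545 and from 0.461 to 84.95 in mouse 5542, and was 0 in mouse 5541 and in culture. Over 37 CTCs the Spearman rho of CD44 was 0.55 with the neutrophil sum and 0.54 with the sum of the erythroid markers, and within mouse 5546 alone these were 0.33 and 0.39. All these rho values are descriptions over cells that share mice and size factors, and the part of blood cell RNA in the CD44 values was not tested. With the sum of the LM2 mesenchymal markers, the rho of CD44 was 0.33 over 37 CTCs, 0.32 within the 10 CTCs of mouse 5545, 0.78 within the 17 CTCs of mouse 5546, 0.87 within its c libraries and 0.81 within its s libraries.

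**Figure D2:**
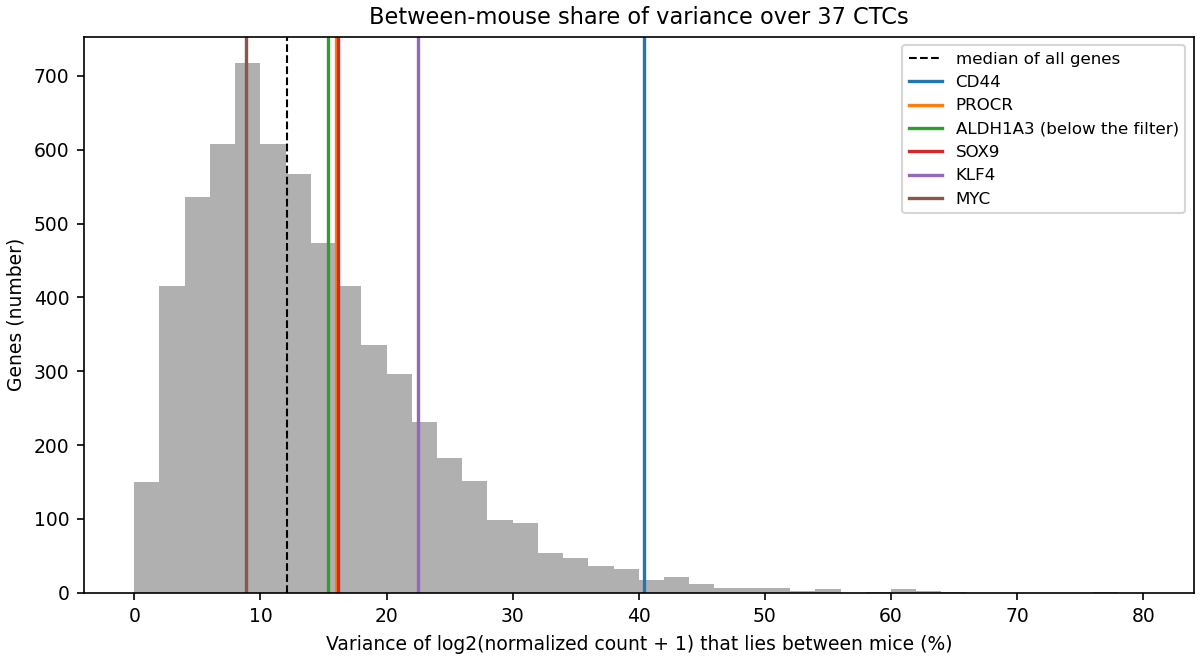
Histogram of the share of variance of log2(normalized count + 1) that lies between the 5 mice, in %, over 6138 genes and 37 CTCs, with the number of genes on the vertical axis. Solid lines mark the 6 genes and the dashed line the median of all genes, 12.1%. CD44 lies at 40.4%, far to the right, KLF4 at 22.5%, and MYC at 8.84%, left of the median.

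CD24, the glycoprotein whose absence defines the CD44-high and CD24-low surface phenotype, was looked up after the values had been seen. It was detected in 9 of 37 CTCs, and 28 CTCs had CD44 reads without a CD24 read. CD44 exceeded CD24 in 34 of 37 CTCs. The highest CD24 value, 436, was that of CTC 5545-1, in which CD44 was 64.1. In culture 2 of 6 cells had CD24 reads, up to 5.94. CD24 has near-identical copies in the genome, so that uniquely mapped reads may undercount it.

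PROCR (ENSG00000101000) lies on the plus strand at chr20:35172072-35216240. Its normalized count was 41.7 and 167 in the 2 CTCs of mouse 5541, and 4.10, 16.6, 16.8 and 37.2 in mouse 5542. In mouse 5549 it was 0, 2.24, 8.82 and 36.8. In mouse 5545 it ranged from 0 to 68.4 with a median of 1.45, and in mouse 5546 from 0 to 78.6 with a median of 1.16. The culture gave 0, 0, 35.5, 37.6, 42.7 and 49.7. Its cells without a PROCR read, LM-10 and LM-3, had the fewest genes detected of the culture, 7369 and 7405. The others had 8467 to 13679. LM-10 and LM-3 also had no read of SOX9 or ALDH1A3, and the part of library quality in these zeros was not tested. Cultured cells thus had either no read or a level between 35.5 and 49.7, while CTC values also lay between 0 and these levels. Where PROCR had no read, the value of 3 reads, taken as the limit that a count of 0 allows, was 1.20 to 5.00 per CTC, well below these levels. MMP24OS, a gene on the opposite strand that overlaps the annotated span of PROCR, was detected in 31 CTCs with a mean of 26.3, and because the counting ignored strand, reads of the overlap could not be assigned.

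The enzyme ALDH1A3 (ENSG00000184254), at chr15:100877714-100916626 on the plus strand, was close to the detection limit in most cells. Its 10 positive CTCs were 1 of mouse 5541 at 20.8, 1 of mouse 5542 at 5.40, 4 of mouse 5545 between 2.68 and 27.7, 3 of mouse 5546 between 0.324 and 7.00, and 1 of mouse 5549 at 3.25. Only 3 of these CTCs were at 8 or more. In culture it was 0 in 3 cells and 4.75, 8.07 and 15.9 in the others. The 27 CTCs without a read had values of 3 reads between 1.20 and 6.36, so that a level like that of the lower positive cells was not detectable in all of them. The antisense gene ALDH1A3-AS1 had reads in 2 CTCs, at up to 14.3.

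Of the transcription factors, SOX9 (ENSG00000125398), at chr17:72121020-72126416 on the plus strand, was detected in most cells at low levels. It was 0 and 88.2 in mouse 5541, and 0, 1.38, 11.2 and 17.8 in mouse 5542. In mouse 5549, where all 4 CTCs had reads, it was 27.4, 33.1, 71.6 and 90.4. In mouse 5545 it ranged from 0 to 46.7 with a median of 11.8, and in mouse 5546 from 0 to 56.5 with a median of 12.2. Cultured cells held 0, 0, 42.0, 54.6, 57.7 and 69.6. All 4 CTCs of mouse 5549 were above every CTC of mouse 5542, a pair of mice not planned in advance. How many genes separate a pair of mice in this way was not counted. Of the variance of SOX9, 16.1% lay between mice, a share that 33.2% of genes reached. In mouse 5546 SOX9 was detected in 9 of 9 c libraries, with a median of 29.2, and in 4 of 8 s libraries, with a median of 1.74. Over the 17 CTCs of mouse 5546 the rho of SOX9 with the neutrophil sum was -0.74, with -0.78 in the c and -0.68 in the s libraries. It was 0.55 within mouse 5545, however, and -0.09 over 37 CTCs. With genes detected the rho of SOX9 was 0.49 within mouse 5545 and 0.49 within mouse 5546. Within the letters of mouse 5546 it was -0.20 in the c and -0.03 in the s libraries. All these values are descriptions only.

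KLF4 (ENSG00000136826), at chr9:107484852-107490482 on the minus strand, was the member with the widest spread of log2 ratios between mice. Its normalized count was 0.563 and 1.21 in mouse 5541, 0, 0, 8.11 and 8.76 in mouse 5542, and 0, 0, 145 and 146 in mouse 5549. In mouse 5545 it ranged from 0 to 38.1 with a median of 15.5. In mouse 5546 it ranged from 0 to 554 with a median of 39.2. The 16 CTCs of mice 5541, 5542 and 5545 thus lay at or below 38.1, and 11 of the 21 CTCs of mice 5546 and 5549 lay above it. This grouping of mice and the cut were both taken from the KLF4 values, so the separation only describes them. Of these 21 CTCs, 17 were of mouse 5546. In culture KLF4 was 0, 2.74, 3.76, 9.95, 36.8 and 43.6. CTCs above the highest cultured cell numbered 8 of 17 in mouse 5546, 2 of 4 in mouse 5549 and 0 in the other 3 mice.

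The 2 CTCs with the highest KLF4 were 5546-s4 at 554 and 5546-c10 at 543, followed by 5546-s8 at 295. They differed in the markers of other cells. CTC 5546-s4 had the highest leukocyte sum of all CTCs, 653, the highest monocyte and macrophage sum, 426, and a neutrophil sum of 368, whereas 5546-c10 had 29.3, 18.3 and 107. Over 37 CTCs the rho of KLF4 was 0.43 with the neutrophil sum and 0.39 with the monocyte and macrophage sum, and within mouse 5546 both were 0.29. KLF4 is also a gene of the monocyte lineage, and the part of blood cell RNA in its values was not tested. Of the variance of KLF4, 22.5% lay between mice, a share that 15.7% of all genes reached. Without the s libraries of mouse 5546 these were 37.5% and 8.26%, and without all CTCs of mouse 5546 they were 18.6% and 38.8%.

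The 250 bases upstream of the RefSeq start were searched on both strands for the E-box CACGTG, which MYC binds with MAX, the GC box GGGCGG, recognized by SP and KLF factors, the TATA motif TATAAA and the AP-1 motif TGANTCA. An E-box occurred in 6.34% of 35116 such windows, a GC box in 42.6%, the TATA motif in 10.7% and the AP-1 motif in 6.57%. The windows of KLF4, at chr9:107489770-107490019 on the minus strand, and of PROCR, at chr20:35171822-35172071 on the plus strand (GRCh38.p14, RefSeq), are printed 5' to 3' because KLF4 was the member whose log2 ratio to culture varied most between mice and held the E-box among the 4 members searched, and PROCR held the TATA motif. Capitals mark the motifs.
KLF4: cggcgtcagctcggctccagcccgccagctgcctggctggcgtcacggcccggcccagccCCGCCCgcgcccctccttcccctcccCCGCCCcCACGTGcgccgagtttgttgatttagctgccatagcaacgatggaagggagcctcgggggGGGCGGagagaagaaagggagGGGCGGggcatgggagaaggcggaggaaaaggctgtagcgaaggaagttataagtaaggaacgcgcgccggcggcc
PROCR: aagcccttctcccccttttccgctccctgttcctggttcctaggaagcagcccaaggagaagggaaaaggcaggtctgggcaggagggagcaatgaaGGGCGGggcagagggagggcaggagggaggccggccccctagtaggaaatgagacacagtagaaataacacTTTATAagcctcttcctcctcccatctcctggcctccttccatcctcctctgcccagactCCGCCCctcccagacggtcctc
KLF4 held 4 GC boxes, at 190, 164, 97 and 76 bases upstream, and an E-box at 157 bases. PROCR held 2 GC boxes, at 153 and 22 bases, and the TATA motif on the reverse strand at 82 bases. The window of CD44, which overlaps an annotated exon and is not printed, held 2 GC boxes, and that of ALDH1A3 held 6. None of these 4 windows held an AP-1 motif. The windows of SOX9 and MYC were not searched. These matches describe the letters of the windows only.

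MYC (ENSG00000136997), at chr8:127735434-127742951 on the plus strand, was either absent or well above the limit of detection. It was 281 and 289 in mouse 5541, 0, 31.9, 55.3 and 150.4 in mouse 5542, and 0, 31.96, 129 and 1320.5 in mouse 5549. In mouse 5545 it ranged from 0 to 2013 with a median of 53.7, and in mouse 5546 from 0 to 352 with a median of 53.5. Cultured cells gave 29.3, 165, 173, 230.3, 503 and 730.2, so that none was at 0. All 28 CTCs with a MYC read were at 14.4 or more, whereas in the 9 CTCs without one the value of 3 reads was 1.20 to 2.46. These 9 CTCs held 644520 to 1581202 reads, within the range of the other CTCs, but between 2313 and 8149 genes detected, against 5943 to 12299 in the 28 with a MYC read, and the part of library quality in the MYC zeros was not tested. Of the 9, 6 came from mouse 5546. In that mouse MYC was detected in 8 of 9 c libraries and in 3 of 8 s libraries. Little of the variance of MYC lay between mice, 8.84%, a share that 67.6% of genes reached.

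MYC is transcribed within minutes of growth factor or stress signals, like the immediate early genes FOS, JUN and EGR1. Over the 37 CTCs MYC had a Spearman rho of 0.69 with the summed level of 13 such genes, a list that does not hold MYC. This was 0.81 within the 10 CTCs of mouse 5545, 0.78 within the 17 of mouse 5546, 0.68 within its c libraries and 0.79 within its s libraries. Over the single genes of the list the rho with MYC was above 0 for each, from 0.06 for NR4A1, an orphan nuclear receptor, to 0.56 for DUSP1, a phosphatase of MAP kinases. With the number of genes detected the rho of MYC was 0.28 over 37 CTCs, but 0.41 within mouse 5545, 0.58 within mouse 5546, 0.60 within its c libraries and 0.52 within its s libraries. With the sum of 32 MYC target genes in the table it was 0.32 over 37 CTCs, 0.67 within mouse 5545, 0.53 within mouse 5546, 0.27 within the c and 0.55 within the s libraries. The part of genes detected in the relation of MYC to the immediate early genes was not tested. These are descriptions over cells that share mice, size factors and depth.

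**Figure D3:**
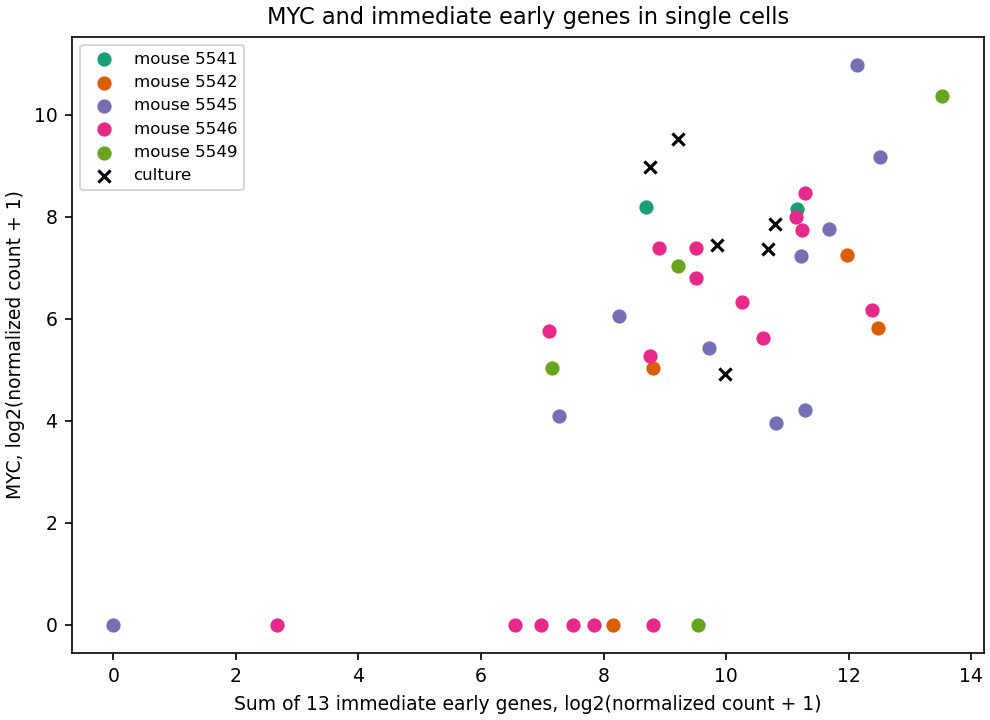
MYC against the sum of 13 immediate early genes, both as log2(normalized count + 1), with 1 point per CTC colored by mouse and crosses for the 6 cultured cells. CTCs with high sums had MYC reads, and the 9 CTCs without MYC reads lie along the bottom at sums of 741 normalized counts or less (Spearman rho 0.69 over 37 CTCs).

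The members were then compared with each other. Over 37 CTCs the rho between members ranged from -0.31, for CD44 with PROCR and with SOX9, to 0.30, for CD44 with KLF4. The last was 0.52 within mouse 5545 and 0.01 within mouse 5546. MYC and KLF4 had a rho of 0.29, MYC and PROCR 0.27, and SOX9 and PROCR -0.01. CD44 and MYC had a rho of 0.04 over 37 CTCs, 0.26 within mouse 5545 and 0.44 within mouse 5546. Within the letters of mouse 5546 the rho of MYC and KLF4 was -0.35 in the c and 0.68 in the s libraries. Because such values differed between sets of cells and were not tested, none of the 6 genes is said to follow another. The genes most like each member were therefore sought among 6137 others with a mean of at least 8 and reads in at least 50% of CTCs, and ALDH1A3 was left out because fewer CTCs expressed it. For MYC these were TMEM43, a nuclear envelope protein (0.71), RAB22A, an endosomal GTPase (0.69), and NSMCE2, a SUMO ligase of the SMC5/6 complex (0.66). For KLF4 they were IRS2, an insulin receptor substrate (0.65), AMOTL2, an angiomotin (0.64), and MIER1 (0.62). For SOX9 they were PSME4, a proteasome activator (0.65), UTP20, a ribosome biogenesis factor (0.63), and MRPS31, a mitochondrial ribosomal protein (0.59). For PROCR they were ARMCX3 (0.64), C1orf198 (0.61) and SPIN1 (0.59). For CD44 they were ANKLE2 (0.61), CDV3 (0.60) and CEBPB, a C/EBP transcription factor (0.60). Within mouse 5546 the rho of these named genes with their member ranged from 0.36 for ARMCX3 and 0.37 for MIER1 to 0.75 for NSMCE2. With the number of genes detected, their own rho over 37 CTCs ranged from 0.07 for MIER1 to 0.48 for CDV3. The 99th percentile of the rho over all genes compared was between 0.46 for PROCR and 0.55 for MYC, and the leading genes were chosen as the highest of all of them.

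The design also sets CTCs against cultured LM2 cells. Because the culture is 1 sample, a rule of size stood in for a test. To meet it, a gene had to be at least 4-fold higher, or at least 4-fold lower, in the mean of every mouse than in the culture mean, with 1 added to both, and to have a mean of 8 or more on one of the sides. None of the 6 members met it. Over the 9164 genes that reached the minimum mean, 487 met it as lower in CTCs (5.31%) and 6 as higher (0.0655%), or 5.38% in either direction. This split depended on the scaling, with 12 higher and 137 lower of 8777 genes when each cell was scaled by its reads on genes, and 21 higher and 45 lower of 8330 genes as CPM of summed reads scaled by the trimmed mean of M values (TMM). ALDH1A3 did not reach the minimum mean, so that 5 members could have met it.

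The mean over mice of the log2 ratio of CTCs to culture was 0.05 ± 2.56 (SD, n = 5 mice) for KLF4, -0.22 ± 1.20 for PROCR and -0.68 ± 0.97 for CD44. It was -0.70 ± 1.11 for SOX9, -0.77 ± 1.18 for MYC and -0.78 ± 1.23 for ALDH1A3. The spread between mice exceeded the mean ratio of each gene, and no member had all 5 mice on the same side of the culture. Relative to all genes the members were not low, since the median ratio of the 9164 genes was -1.56 and each member was above it. The sign of a ratio against culture depended on the scaling. With TMM-scaled CPM of summed reads, the median of all genes was -0.23 and the ratios were 0.64 for CD44, 0.97 for PROCR, 0.35 for ALDH1A3, 0.52 for SOX9, 1.09 for KLF4 and 0.12 for MYC.

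KLF4 was the member on which the mice differed most against culture. Its log2 ratio was -3.18 in mouse 5541, -1.72 in mouse 5542, 0.08 in mouse 5545, 2.97 in mouse 5546 and 2.10 in mouse 5549. Only 2.14% of the 9164 genes had a larger SD over mice. For PROCR 4 mice lay between -1.14 and -0.54 and mouse 5541, with 2 CTCs, at 1.88, where its mean of 104 became 41.7 without CTC 5541-1. For CD44 the ratio was 0.43 in mouse 5546 and 0.20 in mouse 5542, where it rested on CTC 5542-4, without which the mean of that mouse was 222 instead of 614. For MYC the ratios of mice 5542 and 5546 were -2.34 and -1.73, and those of the other 3 lay between -0.10 and 0.28. The MYC mean of mouse 5545 was 311 and became 121 without CTC 5545-7, and that of mouse 5549 was 370.4 and became 53.7 without CTC 5549-6.

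**Figure D4:**
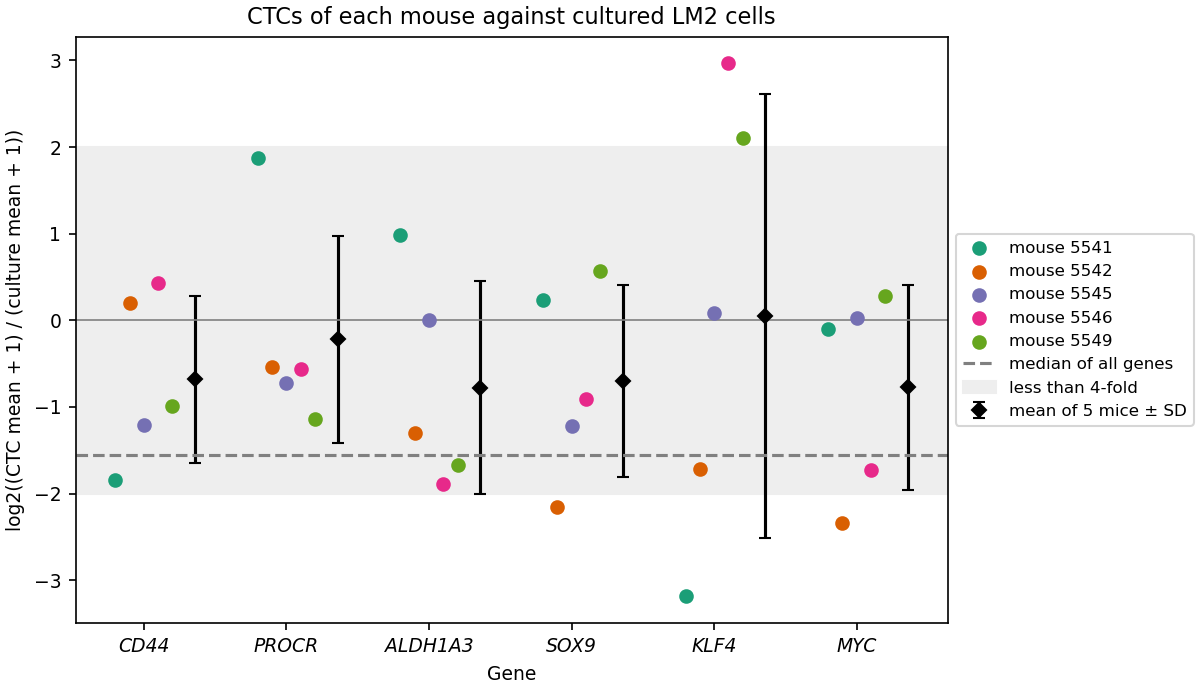
Log2 ratio of the mean of the CTCs of each mouse to the mean of the 6 cultured cells, with 1 added to both means, for the 6 genes. Colored points are mice, black diamonds with bars the mean and SD of 5 mice, the shaded band marks less than 4-fold and the dashed line the median of all genes, -1.56. Mice lie on both sides of 0 for each gene, and KLF4 spans from -3.18 to 2.97.

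The recovered reads were also summed within each mouse and within the culture and compared by the quasi-likelihood test of edgeR. This test, in which the culture is assumed to vary like a mouse, called 0 of 13813 genes at a false discovery rate of 5% in either direction (0%). At an unadjusted p under 0.05 it gave 241 genes, fewer than the 5% of 13813 that no difference at all would give. The Wald test of DESeq2 called 20. The log2 fold change of CTCs over culture was 2.60 for KLF4, 1.55 for PROCR, 1.05 for ALDH1A3, 0.86 for SOX9, 0.82 for CD44 and 0.34 for MYC, with an adjusted p of 1.00 in edgeR for each, against a median of 0.31 over all genes tested. With the dispersion fitted to these data, the test recovered 0 of 200 genes simulated with an 8-fold change, so that changes of this size could not be detected by it.

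Genes around the members were described through lists fixed by pathway. Over all genes that reached the minimum mean, 5.31% met the rule of size as lower in CTCs. The counts of the lists were not tested against this share. Of the genes of CD44 ligands and hyaluronan metabolism, 9 of 19 reached the minimum mean and 0 met the rule of size, with a median log2 ratio of -1.79. SRGN, the core protein of a proteoglycan that binds CD44, had a mean over mice of 150.2 and a culture mean of 397, and HYAL2, a hyaluronidase, 55.2 and 99.96. Of the membrane partners of CD44 and the genes of its cleavage and splicing, 1 of 18 met the rule as lower in CTCs and the median was -1.28. This was NCSTN, the nicastrin subunit of gamma-secretase, which cleaves CD44 in the membrane, at 23.0 in CTCs and 227 in culture. Of the other surface markers of mammary stem or progenitor cells, 1 of 10 met it, the drug transporter ABCG2 at 0.355 and 14.3, with a median of -0.64.

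Of the genes of the protein C and protease-activated receptor system, 1 of 7 met the rule as lower in CTCs, and the median was -1.93. This was F3, tissue factor, the initiator of blood coagulation, at 58.9 in CTCs and 575 in culture. The aldehyde dehydrogenases and the retinoid pathway had the most, with 4 of 16 lower in CTCs and a median of -2.25. ALDH3A1 had no read in any of the 37 CTCs and was detected in 5 of 6 cultured cells, with a mean of 69.9. ALDH1B1, a mitochondrial aldehyde dehydrogenase, was at 8.78 and 94.3, ALDH18A1, the first enzyme of proline synthesis, at 5.84 and 71.4, and ALDH5A1, of GABA breakdown, at 0.117 and 13.6. Among the SOX, KLF and pluripotency factors, 1 of 14 met it as lower, ID4 at 0.753 and 14.3, and the median was -0.91.

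KLF6, a zinc finger factor related to KLF4, was singled out from that list after its values were seen. Its mean over mice was 1125 against 198 in culture, a log2 ratio of 2.44 ± 0.47 (SD, n = 5), between 1.83 and 3.07 in the 5 mice, so that it missed the rule in the lowest mouse. It was detected in 35 of 37 CTCs and in 5 of 6 cultured cells. Unlike those of KLF4, the mouse ratios of KLF6 all lay above 0.

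Of the MYC network, 2 of 13 genes met the rule as lower in CTCs, AURKA, a mitotic kinase that stabilizes MYC family proteins, at 37.4 in CTCs and 551 in culture, and MLX, a dimerization partner in the extended network, at 28.4 and 231, with a median of -1.42 over the list. Of the MYC target genes, 3 of 30 met it as lower, with a median of -2.20. These were DKC1, the dyskerin pseudouridine synthase, at 53.8 and 454, and the ribosome biogenesis factors BOP1 at 29.7 and 267 and NOP2 at 1.75 and 21.4. The targets with the highest level stayed within the rule, LDHA at 4992 and 10434 and NPM1 at 1355 and 3592. Of the Notch, Wnt and Hedgehog components, 0 of 15 met it and the median was -1.27, with DKK1, a secreted Wnt inhibitor, at 564 and 1559 and CTNNB1 at 76.2 and 124. No gene of these 9 lists met the rule as higher in CTCs, and edgeR called 0 of them in either direction. The signs of the list medians turned with the scaling. In edgeR, on the TMM scale and over all list members tested, the median log2 fold change was 0.13 for hyaluronan, 0.42 for the CD44 partners, 0.33 for the other surface markers and 0.40 for the MYC network. It was 1.36 for the SOX, KLF and pluripotency factors and 0.42 for the Notch, Wnt and Hedgehog components. Below 0 were the protein C system at -0.16, the MYC target genes at -0.46 and the aldehyde dehydrogenases and retinoid pathway at -0.61, against 0.31 over all genes. Single genes moved too. Of those named as lower by the rule, NCSTN at -1.92, MLX at -1.63, DKC1 at -1.83 and BOP1 at -1.89 were short of 4-fold in edgeR. The others lay between -11.2 and -2.15 there. Mitosis genes, given as markers of the cell cycle, had a median log2 ratio of -3.53, with BUB1 at 6.01 and 104, and their part in the values of AURKA and other list genes was not tested.

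**Figure D5:**
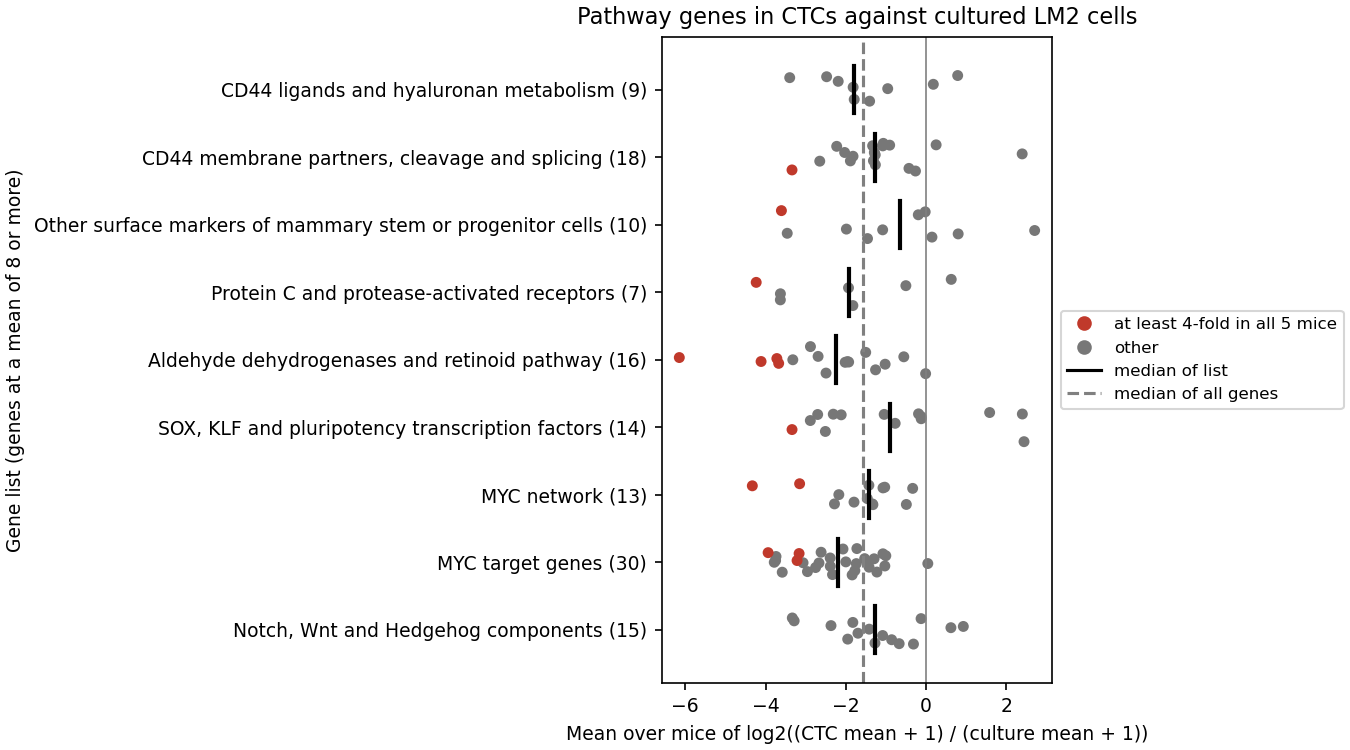
Mean over 5 mice of the log2 ratio of CTC mean to culture mean, with 1 added to both, for genes of 9 lists that reached a mean of 8, whose number stands in brackets. Each point is a gene, red points met the rule of size, black lines mark the median of each list, and the dashed line marks the median of all genes, -1.56. All red points lie below 0, and the 4 aldehyde dehydrogenases reach down to -6.15.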

How the data were processed

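Expression was measured by SMARTseq2 in 37 CTCs of 5 mice and in 6 cultured LM2 cells, which were grouped by their labels. The deposited table holds a signal, gene counts of reads that the authors scaled by size factors of DESeq2 1.42.1. For the counting, the authors used STAR 2.7.10a, GRCh38 and the GENCODE 38 annotation, with unique alignments only and without regard to strand, and 4 CTCs were left out for low mapping or high mitochondrial content. Reads of mouse cells that align uniquely to the human genome would be counted. Whole reads were recovered from the deposited values for 100% of nonzero values (tolerance 0.001). Depth was 469614 to 2041333 reads per CTC.

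The 6 genes, their pathway lists and the tests were chosen with earlier results of these data known. Named are the 6 members and the 3 genes with the highest rho for each member with reads in at least 50% of CTCs. Of each list up to 4 genes meeting the rule of size are named, or otherwise the 2 with the highest mean in CTCs. That mean was taken over all single CTCs, not over mouse means. Of the gene identifiers, 25565 matched a symbol in GENCODE release 44. Ratios are log2 of means with 1 added, which understates differences of low genes. Cells are not replicates, so groups of cells were not tested against each other, and Dixon's criterion for single cells only marks cells to look at. The labels carry 1 batch for all samples. Nothing says that CTCs of a mouse are more than cells of 1 blood sample. CD24 and KLF6 were added after their values were seen.

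Reads summed per mouse and over the culture were tested with the quasi-likelihood test of edgeR 4.0.16 in R 4.3.3 (filterByExpr, TMM, Benjamini-Hochberg at 5%), with the Wald test of DESeq2 1.42.0 as an alternative. The other values were computed in Python 3.11.15 (numpy 2.4.6, scipy 1.17.1, pandas 2.3.3). Alternatives were other pseudocounts, averages, scalings and thresholds, thinning, and leaving out each mouse and cultured cell. The rule of size, the recovery of reads, the thinning and the edgeR test were also run on simulated data, the other steps were not. For 5 mice against 1 culture and 200 genes with an 8-fold change, edgeR recovered 0 at the dispersion of these data among 12598 genes tested, and 188 at a dispersion of 0.1 with 10 false calls among 12271.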

Additional observations from a re-analysis of the deposited data

Results flagged for a closer look

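In 24 sets of CTCs, each of 1 gene in 1 mouse with 4 to 10 CTCs or of the cultured cells, the highest or lowest cell was compared with the rest, and 7 sets had a cell that lay far from the others by Dixon's criterion. The rate of about 1 in 20 that chance gives holds for normally spread values, which these skewed counts with zeros are not, so that the number of sets is not read against it. CTC 5542-4 had a CD44 value of 1790.5, with the others of its mouse at 275 or less. CTC 5545-7 had a CD44 value of 827, with the others at 380.1 or less, and a MYC value of 2013, with the others at 573 or less. CTC 5549-6 had a MYC value of 1320.5, with the others at 129 or less. It also had the highest sums of immediate early genes, 11815, of neutrophil markers, 574, and of erythroid markers, 15558, of all CTCs. ALDH1A3 was 27.7 in CTC 5545-1, with the others at 14.2 or less, and was detected in a single CTC of mouse 5542, 5542-8 at 5.40, and of mouse 5549, 5549-5 at 3.25, where a single positive cell among zeros meets the criterion by construction. The values of these cells were left in the comparisons.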

How the results depend on the processing

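No member met the rule of size under any of the 22 alternatives, among them other pseudocounts, scalings, a 2-fold rule and leaving out each mouse or cultured cell, and each member was above the median gene wherever a ratio was computed. With TMM-scaled CPM of summed reads the log2 ratio was 0.64 for CD44 and 0.52 for SOX9, and with means of log2 values per cell that of MYC was -1.96. Leaving out 1 mouse or cultured cell gave -0.96 to -0.39 for CD44, -0.74 to 0.02 for PROCR, -1.21 to -0.08 for ALDH1A3, -1.01 to -0.33 for SOX9, -0.68 to 0.86 for KLF4 and -1.04 to -0.30 for MYC. With a 2-fold rule 2322 genes met it instead of 493. Higher and lower genes numbered 3 and 144 with 8 added to the means and 4 and 1305 with means of log2 values per cell, and the lower genes 397 to 757 when 1 mouse or cultured cell was left out. The edgeR test called 0 genes, 27 without a filter (20 higher and 7 lower in CTCs) and 0 to 1 when 1 mouse was left out, and the DESeq2 Wald test called 20 (18 higher and 2 lower). None of these calls was counted as support for a member, each of which had an adjusted p of 0.88 or more in all edgeR and DESeq2 alternatives. With a minimum value of 8, 3 CTCs had ALDH1A3 and 24 had KLF4. Chosen after seeing the data were the alternatives for the share of variance between mice, which without mouse 5546 was 28.4% for PROCR, 29.6% for SOX9 and 9.11% for ALDH1A3, and without its s libraries was 30.9% for SOX9, and leaving out CTC 5545-6, which gave -0.65 for CD44 and -0.74 for MYC, and CTC 5541-1, which gave -1.37 for CD44, -0.48 for PROCR and -1.48 for ALDH1A3, with 0 genes higher and 537 lower. The cause of these shifts was not tested.

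No paired analysis was possible because the replicate numbers in the labels only name picked cells and the culture is 1 sample. The number of CTCs, 2 to 17 per mouse, limits each mouse mean, and reads without molecular identifiers leave amplification in the values.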
